A study of Mus musculus with 66 samples.

Results

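The transcripts described here are those of 76 histone genes in the testis of 8-week-old male C57BL/6 mice, set against brain, liver and skeletal muscle of mice of the same strain, sex and age. They were measured by 3′-seq, which sequences the ends of polyadenylated RNA. Each tissue had 1 library in each of 2 deposited tables, called replicate 1 and replicate 2 below, so the comparison uses 2 testis and 6 somatic libraries of the 66 samples of the series, and all 76 genes listed in both. No treatment, transgene or mutation is given for the tissues. Columns are headed by tissue and name no mouse, and nothing says that the libraries of a tissue came from separate mice. The p-values of tissue differences below therefore rest on the spread between these libraries, which may be technical. Those that compare the 2 testis libraries with each other cover counting error only.

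Histones package DNA, and most are made during DNA replication from gene clusters whose mRNAs end in a short hairpin, the histone stem-loop, and carry no poly(A) tail. Other histone genes make polyadenylated mRNA outside replication, among them H3f3a and H3f3b, which encode the replacement histone H3.3, and some cluster genes have a polyadenylated form as well. The testis is known for its own histones: during spermatogenesis, linker histone H1t, the H2A and H2B variants TH2A and TH2B, and H3t are built into the chromatin of germ cells, and in spermatids most histones give way to protamines. 3′-seq sees only the polyadenylated part of these transcripts, and since it reads transcript ends, its values do not scale with gene length. The tables also list H3t and the H3mm genes, H3-like sequences of the mouse genome that the study named, and these are called new H3 genes below (14 in the class). Each tissue mixes several cell types, so that fewer cells of a type and less RNA per cell cannot be told apart.

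Sequences at the ends of the genes are shown first, because 3′-seq reads polyadenylated ends and most cluster mRNAs carry no poly(A) tail. All are from the mm9 reference (NCBIM37), printed 5′ to 3′ on the gene's strand, with the 16 bases of the stem-loop or the 6 bases of the poly(A) signal in capitals. Hist1h2bp, an H2B gene and the gene that stood farthest above the somatic tissues, had its stem-loop at chr13:21879787-21879812 (plus strand) and its poly(A) signal at chr13:21881050-21881075 (plus strand). Hist1h4a, an H4 gene, had them at chr13:23852664-23852689 and chr13:23852574-23852599 (minus strand). Hist1h1t, the gene of the testis linker histone H1t, had them at chr13:23788389-23788414 and chr13:23788558-23788583 (plus strand). The stem-loops of Hist1h3a, an H3 gene, and of H3t lay at chr13:23853754-23853779 (minus strand) and chr11:58775750-58775775 (plus strand). Hist2h2be, an H2B gene, had a poly(A) signal at chr3:96027630-96027655 (plus strand) and no stem-loop match. Hist1h1c, a linker histone gene that was lower in testis, is shown for contrast, with sites at chr13:23831376-23831401 and chr13:23832201-23832226 (plus strand).
Hist1h2bp stem-loop: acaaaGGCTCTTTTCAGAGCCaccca
Hist1h2bp poly(A) signal: acattataaaAATAAAggtttcaatc
Hist1h4a stem-loop: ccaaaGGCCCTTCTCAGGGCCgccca
Hist1h4a poly(A) signal: aaattgagtaAATAAAccttgagtgc
Hist1h1t stem-loop: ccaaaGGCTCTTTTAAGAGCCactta
Hist1h1t poly(A) signal: tttacgccagAATAAAggtcaccatt
Hist1h3a stem-loop: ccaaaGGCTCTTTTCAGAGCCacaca
H3t stem-loop: ccaacGGCTCTTTTCAGAGCCaccca
Hist2h2be poly(A) signal: tattattattAATAAAgttaccgatt
Hist1h1c stem-loop: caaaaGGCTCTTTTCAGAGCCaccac
Hist1h1c poly(A) signal: gtatgcttctAATAAAaagcgtttag
The stem-loop was searched in the 100 bases after the coding sequence, on the gene's strand, as a 6-base-pair stem with a 4-base loop, and the poly(A) signal as AATAAA or ATTAAA in the last 40 bases of an annotated transcript. Of 35468 such windows after coding sequences in the annotation, 0.183% held the stem-loop, and of 44586 annotated coding 3′ ends, 49% held a poly(A) signal. Both are matches of letters and not measured sites.

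The libraries held between 3602579 (testis, replicate 1) and 14060394 (skeletal muscle, replicate 1) uniquely mapped reads, and testis of replicate 2 held 7345588. Reads of the 76 genes were few, from 596 in brain to 3728 in skeletal muscle. Testis had 1580 and 1689 of them in replicates 1 and 2. Intervals below are exact Poisson 95% intervals of the reads and, like the limit of 3 reads for a gene without a read, cover counting error only. In a single tissue library that limit is 0.213 to 0.833 RPM (reads scaled to all uniquely mapped reads of a library), and over the 6 somatic libraries pooled it is 0.0679 RPM. Of 12 histone genes known for the testis that were looked for, 3 are in the tables (Hist1h1t, Hist1h2ba and H3t), and 2 of these had a testis read. None of 4 markers of brain, liver and muscle is listed, so the somatic tissues could not be checked against their labels.

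Reads of 5 of the 76 genes were found in both testis libraries and in none of the 6 somatic libraries. These were Hist1h2bp, Hist1h4a, Hist1h3a, H3t and Hist1h1t, the genes of an H2B, an H4, an H3, the testis H3 and the testis H1. The same count was 1 for brain, 0 for liver and 1 for skeletal muscle. A further 7 genes had reads in a single testis library and no somatic one, with at most 2 reads each. In all, 12 genes were read in testis alone, 10 in somatic libraries alone (at most 2.05 RPM), and 39 in neither. Neither C2C12 library, which were made from growing and differentiated cells of this mouse myoblast line, had a read of any of the 5 genes, though the growing cells had only 539990 mapped reads. The intervals of testis to somatic ratios given below for the 5 genes are descriptions, since the genes were picked for having no somatic read. They pool the 2 testis libraries and cover counting error only, not the gap between these libraries.

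Hist1h2bp (chr13:21879330-21881082, plus strand) had 157 RPM in testis of replicate 1 (566 reads, interval 144 to 171) and 35.5 RPM in testis of replicate 2 (261 reads, interval 31.4 to 40.1). No read was counted in brain, liver or skeletal muscle of either table. The groups did not overlap. The testis mean of 96.3 RPM was 1418 times the somatic floor of 3 pooled reads, and the value of replicate 2 alone 523 times. With the counting error in testis included, the exact 95% interval of the ratio of pooled testis to somatic reads began at 903. Hist1h2bp was the first of the 76 genes in testis of replicate 1 and the fourth in replicate 2. It made up 35.8% of the histone reads in replicate 1 (Wilson 95% interval 33.5 to 38.2) and 15.5% in replicate 2 (13.8 to 17.3). The 2 testis libraries thus held it at unequal levels, 4.42 times higher in replicate 1 (exact binomial test, Benjamini-Hochberg adjusted p = 3.81e-95 over 27 genes).

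The annotation gives Hist1h2bp 2 transcripts. Hist1h2bp-001 is a single exon with 378 coding bases that holds the stem-loop printed above and has no poly(A) signal at its end. The other, Hist1h2bp-002, has 2 exons and 414 coding bases. Its first exon stops at 21879760, before the stem-loop, and its last exon begins at 21880893 and ends with the AATAAA shown above. Hist1h2bc, another H2B gene and the most abundant histone gene in the somatic libraries, has the same layout: 2 exons in Hist1h2bc-001, the stem-loop outside them and a poly(A) signal at the end. Which Hist1h2bp transcript gave the reads cannot be read from one value per gene. Of the 31-base words in its annotated 3′-UTR, 89.8% have a single place in the genome, and of those of Hist1h2bc 100%.

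Hist1h4a (chr13:23852561-23853099, minus strand) had 6.11 RPM in testis of replicate 1 (22 reads, interval 3.83 to 9.25) and 0.136 RPM in replicate 2 from a single read (interval 0.00345 to 0.759), with 0 reads in the somatic libraries. The intervals of the 2 testis libraries did not overlap, and the ratio of 44.9 between them was the largest among the genes with at least 10 reads in either (exact binomial test, adjusted p = 3.4e-09). With both testis libraries pooled, the exact 95% interval of the ratio to the somatic libraries began at 23.2. Replicate 1 sets this value almost alone. Its neighbour Hist1h3a (chr13:23853722-23854255, minus strand) ends 622 bases before the start of Hist1h4a on the same strand. Hist1h3a had 2.50 RPM in replicate 1 (9 reads, interval 1.14 to 4.74) and 0.681 RPM in replicate 2 (5 reads, interval 0.221 to 1.59). The exact 95% interval of its pooled ratio began at 13.4. Its annotated transcript carries the stem-loop and no poly(A) signal, whereas that of Hist1h4a carries both in 1 exon. Every 31-base word in the 3′-UTRs of both genes (100%) has a single place in the genome.

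H3t, the testis H3 gene, had 0.555 RPM in replicate 1 (2 reads, interval 0.0672 to 2.01) and 0.408 RPM in replicate 2 (3 reads, interval 0.0842 to 1.19). The exact 95% interval of its pooled ratio to the somatic libraries began at 3.70. The 3000 bases in which its reads were counted lie within Trim17 on the same strand (chr11:58768187-58786600), so reads of the 2 genes cannot be told apart there. Hist1h1t had 2 reads in replicate 1 (0.555 RPM) and 1 read in replicate 2 (0.136 RPM). The 95% interval of its ratio to the somatic libraries, from 3 reads against 0, reaches down to 1.67 and has no upper end. TH2B, encoded by Hist1h2ba, had no read in any library. In the GENCODE annotation its 3′-UTR is too short to hold a 31-base word.

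**Figure D1:**
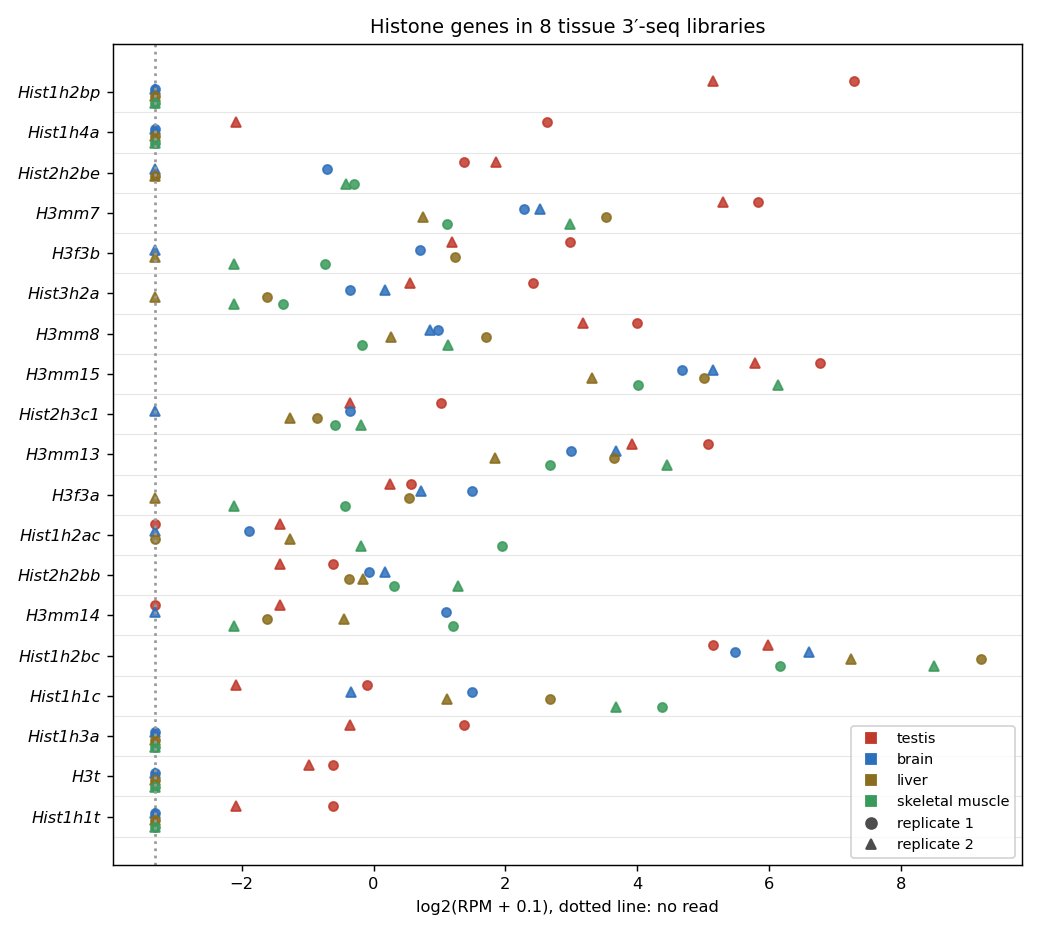
Level of each gene on the log2(RPM + 0.1) scale (x axis) in the 8 tissue libraries, with tissues by colour and tables by marker. The 16 tested genes come first, ordered by their difference, then 3 genes with reads in testis alone that were below the filter. Both testis points of Hist1h2bp lie far to the right of the somatic points, which sit on the line of no read.

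Tissues were compared with limma on log2(RPM + 0.1), over the 16 genes with a mean of at least 0.5 RPM in the 8 libraries. The difference was testis minus the mean of the 3 somatic tissues. At a Benjamini-Hochberg adjusted p below 0.05, 7 of 16 genes were higher in testis (43.8%) and 1 was lower (6.25%). The tested genes are themselves the histone genes listed, so these shares are also the background. Of the 16, 5 had a somatic mean below 0.5 RPM and met the filter only through testis, among them Hist1h2bp, Hist1h4a, Hist2h2be and Hist3h2a, 4 of the 7 called higher. Entry to the test already required them to be higher in testis, so the count of 7 is a description. The p-values of these genes against somatic tissues, given below, are descriptions as well. Among the other 11 genes, 3 were higher (H3mm7, H3mm8 and H3f3b) and 1 was lower. All 8 differences had the same sign in both tables, which adds no separate support, since the same 2 tables gave the calls. In replicate 2 the sign for Hist1h4a rests on 1 read. The fit pooled the spread of the 16 genes completely (64 degrees of freedom), and with either testis library left out most calls were lost: without testis of replicate 1 only Hist1h2bp passed, and without testis of replicate 2 only Hist1h2bp and Hist1h4a did. Counted within the tables and without a test, 10 of the 76 genes (13.2%) were higher in testis than in each somatic tissue of the same table, in both tables. This was so for 3 genes in brain (3.95%), 0 in liver (0%) and 4 in skeletal muscle (5.26%). Without the testis library of replicate 1 the count for testis was 16, since replicate 2 then decided it alone.

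Among genes for cluster histones, Hist1h2bp had the largest difference, 9.55 (standard error 1.12, adjusted p = 6.7e-11, limma), and passed the threshold in all 17 alternatives. Because its somatic libraries are at 0, the size depends on the pseudocount. It ran from 6.25 to 12.87 over the alternatives. For Hist1h4a the difference was 3.60 (standard error 1.50, adjusted p = 0.0388, limma), and it passed in 6 of 15 alternatives. Hist1h2bp and Hist1h4a met the filter only through testis, so their p-values here are descriptions. The genes Hist1h3a, H3t and Hist1h1t were below the filter. Without a filter they were past the threshold (limma adjusted p of 0.00542, 0.00353 and 0.0291), while Hist1h4a was not (0.0715) and neither was H3f3b (0.184). Hist1h3a, H3t and Hist1h1t have no somatic read, so the sign was fixed beforehand and their p-values are descriptions. They rest on 14, 5 and 3 testis reads, and those of H3t cannot be told from Trim17.

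Hist2h2be, an H2B gene of the chromosome 3 cluster, had 2.50 and 3.54 RPM in testis of replicates 1 and 2. In brain it had 0.512 and 0 RPM, in liver 0 in both, and in skeletal muscle 0.711 and 0.650 RPM. Both testis values lay above all 6 somatic values, and the mean was 9.67-fold higher. The difference was 3.52 (standard error 1.14, adjusted p = 0.00792, limma). This p-value is a description, because the gene met the filter only through testis. The 2 testis libraries did not differ beyond counting error (exact binomial test, adjusted p = 0.797).

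Hist3h2a, an H2A gene, had 5.27 and 1.36 RPM in testis. Somatic values ran from 0 in liver of replicate 2 to 1.03 RPM in brain of replicate 2, so the groups did not overlap. The mean was 8.45-fold higher and the difference 2.92 (standard error 1.08, adjusted p = 0.0200, limma). Like Hist2h2be, the gene met the filter only through testis, so this p-value is a description. Hist3h2a lies within Trim17 on the same strand, as the H3t window does, and has the stem-loop and an ATTAAA signal in 1 exon. The 3.87-fold gap between its testis libraries was larger than counting error (exact binomial test, adjusted p = 0.002).

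Of the H3.3 genes, H3f3b was past the threshold and H3f3a was not. H3f3b had 7.77 and 2.18 RPM in testis of replicates 1 and 2. Brain had 1.54 and 0 RPM, liver 2.25 and 0, and skeletal muscle 0.498 and 0.130. Liver of replicate 1 thus reached the lower testis value, although testis was above every somatic tissue within each table. The H3f3b difference was 3.34 (standard error 1.04, adjusted p = 0.00747, limma). With a pseudocount of 0.01 RPM it no longer passed (adjusted p = 0.164). H3f3a had 1.39 and 1.09 RPM in testis, within the somatic range of 0 to 2.73 RPM, and a difference of 0.93 (95% interval -1.10 to 2.96, adjusted p = 0.387, limma). In testis the ratio of H3f3b to H3f3a reads was 5.6 (exact 95% interval 2.13 to 18.6) in replicate 1, and it was 2 (0.808 to 5.4) in replicate 2. In brain it was 0.562 (0.219 to 1.35) and 0 (0 to 0.507), in liver of replicate 1 it was 1.67 (0.549 to 5.58), and in skeletal muscle 0.778 (0.246 to 2.35) and 1 (0.0127 to 78.5). The intervals of liver and skeletal muscle overlap those of both testis libraries. Liver of replicate 2 had no read of either gene. Of the 31-base words in the annotated 3′-UTRs, 67.2% were unique for H3f3b and 78.2% for H3f3a. Reads that fit several places were discarded, and how much each gene lost was not tested.

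The 4 new H3 genes that gave most reads resemble H3.3 genes and were all above 0 in each of the 8 libraries. H3mm7 had 57.2 and 39.5 RPM in testis and 1.58 to 11.5 RPM in the somatic libraries. H3mm8 had 15.8 and 8.98 RPM in testis and 0.782 to 3.15 RPM in the somatic libraries. For both genes the groups did not overlap. The H3mm7 mean was 8.68-fold higher, with a difference of 3.37 (standard error 0.88, adjusted p = 0.00248, limma), and the H3mm8 mean was 6.94-fold higher, with a difference of 2.79 (standard error 0.88, adjusted p = 0.00747, limma).

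H3mm15 and H3mm13 did not pass. H3mm15 had 109 and 55.4 RPM in testis, against 9.81 to 70.0 RPM in the somatic libraries, where skeletal muscle of replicate 2 lay above testis of replicate 2. Its difference was 1.56 (95% interval -0.45 to 3.57, adjusted p = 0.222, limma). H3mm13 had 33.6 and 15.1 RPM in testis, against 3.48 to 21.8 RPM, and a difference of 1.28 (95% interval -0.52 to 3.09, adjusted p = 0.246, limma).

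Within a library, the reads of H3mm15 and H3mm13 stood in a ratio of 3.24 and 3.67 in testis of replicates 1 and 2 and of 2.53 to 3.26 in the somatic libraries. That of H3mm7 to H3mm15 was 0.526 (exact 95% interval 0.442 to 0.624) and 0.713 (0.611 to 0.830) in testis. In the somatic libraries it lay between 0.112 and 0.357, the latter in liver of replicate 1 with an interval of 0.254 to 0.494 that overlaps testis of replicate 1. The ratios need no scaling between libraries, but the genes share sequence. Over the 3000-base windows in which their reads were counted, 86.5% of 31-base words were unique for H3mm7 and 62.9% for both H3mm13 and H3mm15. For H3mm8 this share was not worked out. Reads that fit several places were discarded, and how much each gene lost was not tested.

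Hist1h1c, the gene of the linker histone H1.2, was the 1 gene past the threshold in the other direction. It had 0.833 and 0.136 RPM in testis (3 reads and 1 read). Skeletal muscle had 20.6 and 12.7 RPM, liver 6.31 and 2.06 RPM, and brain 2.73 and 0.688 RPM. Testis was below every somatic tissue of its table, while testis of replicate 1 lay above brain of replicate 2. The difference was -3.26 (standard error 0.89, adjusted p = 0.00256, limma). Together with Hist1h2bc and Hist2h2bb it was 1 of the 3 genes (3.95%) that were lower in testis than in each somatic tissue in both tables. For brain and skeletal muscle this count was 0 (0%) and for liver 1 (1.32%).

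Hist1h2bc, the H2B gene with most reads in every somatic library, had 35.3 RPM in testis of replicate 1 and 63.4 RPM in replicate 2. Brain had 44.7 and 97.7 RPM, liver 596 and 151 RPM, and skeletal muscle 71.6 and 364 RPM. The somatic values thus spanned 44.7 to 596 RPM, and the difference of -1.64 (95% interval -3.99 to 0.72, adjusted p = 0.246, limma) did not pass. It was the 1 gene of 27 that was higher in testis of replicate 2 beyond counting error. The ratio of Hist1h2bp to Hist1h2bc reads was 4.46 (exact 95% interval 3.67 to 5.45) in testis of replicate 1 and 0.56 (0.479 to 0.653) in replicate 2. It was 0 in each somatic library, and the highest upper interval end among these was 0.0142, in brain of replicate 1.

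Also below the somatic mean without passing were H3mm14, a new H3 gene (-1.51, adjusted p = 0.257), Hist2h2bb, an H2B gene (-1.21, adjusted p = 0.259), and Hist1h2ac, an H2A gene (-1.04, adjusted p = 0.417, limma throughout). H3mm14 and Hist1h2ac had 2 reads each in testis of replicate 2 and none in replicate 1. Hist2h2bb had 2 reads in each testis library. Hist2h3c1, an H3 gene named after its values were seen, completes the 16 with 1.94 and 0.681 RPM in testis and a difference of 1.43 (adjusted p = 0.257, limma).

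**Figure D2:**
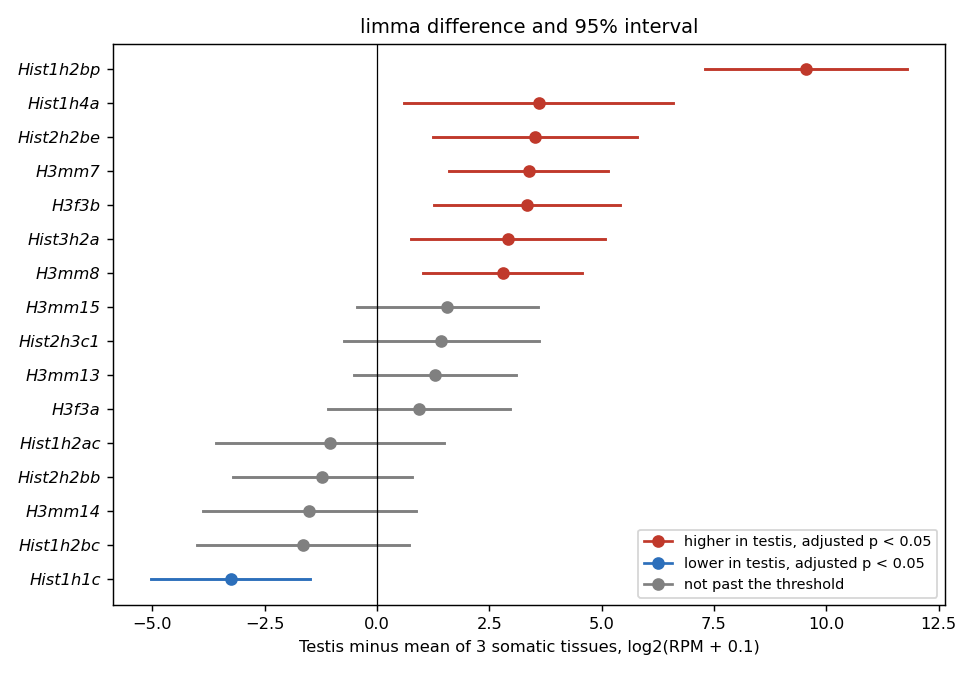
Difference between testis and the mean of 3 somatic tissues on the log2(RPM + 0.1) scale (x axis) for the 16 tested genes, with 95% intervals from limma. Red marks the 7 genes higher in testis, blue Hist1h1c, and grey the 8 genes whose adjusted p was not below 0.05. The interval of Hist1h2bp, 7.30 to 11.79, lies apart from those of the other genes.

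Set against each somatic tissue in turn, from the same fit and the same 2 testis libraries, 4 of 16 genes were higher than in brain (25%) and 0 were lower (0%). For the latter, no gene had an unadjusted p below 0.05 either, in limma or in limma with voom weights. Against liver 6 were higher (37.5%) and 1 lower (6.25%), and against skeletal muscle 5 were higher (31.2%) and 1 lower (6.25%). Hist1h2bp, H3mm7 and H3f3b were higher than in each of the 3 tissues. H3mm8 passed against liver (2.60, adjusted p = 0.043) and skeletal muscle (3.12, adjusted p = 0.0211) and narrowly missed against brain (2.66, adjusted p = 0.0519, limma throughout). Hist2h2be passed against brain (3.64, adjusted p = 0.0455) and liver (4.94, adjusted p = 0.00597) but not skeletal muscle (1.98, adjusted p = 0.256). Hist3h2a passed against liver (3.96, adjusted p = 0.0158) and skeletal muscle (3.24, adjusted p = 0.0461) but not brain (1.57, adjusted p = 0.425). Hist1h1c was lower than in skeletal muscle by the most (-5.12, adjusted p = 0.000106), then liver (-2.99, adjusted p = 0.0245), and missed against brain (-1.67, adjusted p = 0.257). Whether these differences differed between somatic tissues was not tested. For Hist1h2bp, Hist2h2be and Hist3h2a, which met the filter only through testis, these calls are descriptions. With a pseudocount of 0.01 RPM only 1, 2 and 1 genes were higher than in brain, liver and skeletal muscle.

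Summed over classes, the new H3 genes had their highest RPM in testis. Their sum was 216 and 120 RPM in testis of replicates 1 and 2, and 17.6 to 102 RPM in the somatic libraries, so the groups did not overlap. They were 49.2% and 52.2% of the histone reads in testis, against 35.1% to 44.3% in brain and at most 22.1% in liver and skeletal muscle. The sum of the 16 H2B genes was 195 and 103 RPM in testis, within the somatic range of 47.3 to 596 RPM. Without Hist1h2bp it was 38.3 and 67.4 RPM, the lowest of the 4 tissues in each table. The H1 genes summed to 1.39 and 0.272 RPM in testis and 0.688 to 21.5 RPM in the somatic libraries. The H2A genes summed to 5.83 and 1.77 RPM in testis and 0.225 to 4.05 RPM in the somatic libraries, and the H3.3 genes to 9.16 and 3.27 RPM against 0 to 4.27 RPM, so that both overlapped. Cluster H3 and H4 genes were low in every tissue, with 4.72 and 1.50 RPM of H3 and 6.11 and 0.136 RPM of H4 in testis, against at most 1.82 RPM of H3 and 0.516 RPM of H4 in the somatic libraries. These sums are descriptions and were not tested.

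**Figure D3:**
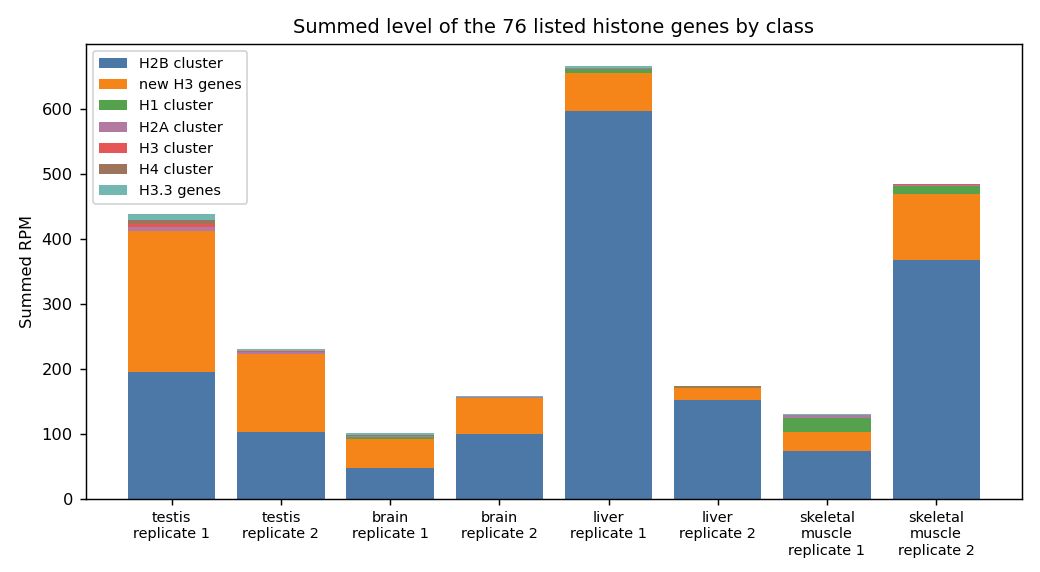
Summed RPM (y axis) of the 76 listed histone genes in each tissue library, stacked by class. The new H3 genes (orange) reach 216 and 120 RPM in testis and at most 102 RPM elsewhere, while H2B genes (blue) reach 596 RPM in liver of replicate 1.

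All histone genes together gave 439 and 230 RPM in testis and 102 to 667 RPM in the somatic libraries. When reads were scaled to 1000 histone reads of each library instead of to all mapped reads, the median difference over the 16 genes moved from 1.50 to 0.99, and the split of calls from 7 higher and 1 lower to 6 higher and 3 lower. Hist1h2bp, H3mm7, H3mm8, Hist3h2a and Hist1h1c passed on both scales. On the histone scale H3mm15 (1.04, adjusted p = 0.00141) and H3mm13 (0.76, adjusted p = 0.00666) passed as well, near the median, as did Hist1h2bc (-2.16, adjusted p = 0.0087) and Hist2h2bb (-1.63, adjusted p = 0.04995, limma throughout). Hist1h4a, Hist2h2be and H3f3b did not pass on this scale. As a share of histone reads, H3mm15 did not stand apart from brain, with 24.8% and 24.1% in testis and 25.2% and 22.4% in brain. H3mm13 had 7.66% and 6.57% in testis, below the 7.72% and 8.04% of brain. Both genes had lower shares in liver and skeletal muscle, at most 14.4% for H3mm15 and 4.86% for H3mm13.

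The 2 testis libraries differed from each other beyond counting error in 9 of 27 genes with a testis read (exact binomial test, Benjamini-Hochberg adjusted p below 0.05). Of these 8 were higher in replicate 1 and 1, Hist1h2bc, in replicate 2. H3mm7, the least uneven of the 9, was 1.45 times higher in replicate 1, and H3mm15 was 1.96 times higher. Replicate 1 of testis is the shallowest of the tissue libraries, and whether depth had a part in the gap was not tested.

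**Figure D4:**
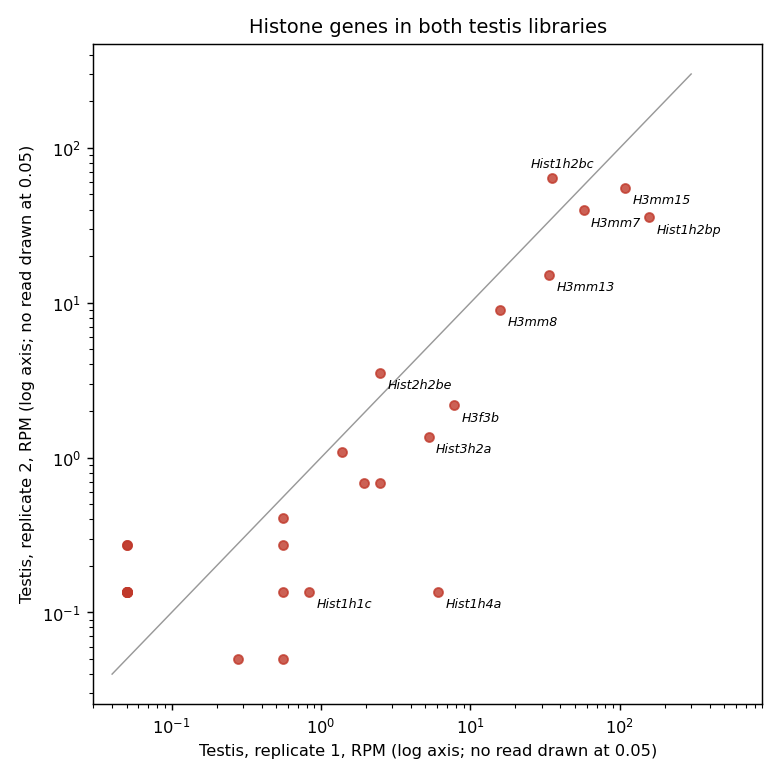
RPM of the genes with a testis read in replicate 1 (x axis) and replicate 2 (y axis) of testis, both on log axes, with a line of equal values. Points lie mostly below the line, Hist1h4a farthest from it with 6.11 and 0.136 RPM, and Hist1h2bc lies above it with 35.3 and 63.4 RPM.

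Sequence features of the cluster genes were set beside their detection. Among 58 genes of the H1, H2A, H2B, H3 and H4 clusters with an annotated 3′-UTR, 56 have the stem-loop and 17 have a poly(A) signal at an annotated end. Of the 17 genes with a signal, 8 had reads in both testis libraries, and of the 41 without one, 2 did. The 8 include Hist1h2bp, Hist1h4a, Hist1h1t, Hist2h2be, Hist3h2a, Hist1h1c and Hist1h2bc. At least 1 somatic library had a read of 8 of the 17 and of 5 of the 41, and at least 1 testis library of 10 of the 17 and 6 of the 41. The 10 genes read in both testis libraries had a median 3′-UTR of 604 bases (93 to 2195), and the 36 genes without a read in any library one of 78.5 bases (4 to 1811). Of the 36, 9 had under 50% of unique words and 5 were too short for a 31-base word, so that a missing read does not show missing RNA. The part of 3′-UTR length in these counts was not tested. These counts are descriptions over genes, which share sequence and position.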

How the data were processed

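3′-seq libraries of mouse tissues were used. Per the study's methods, total RNA was sequenced by a published 3′-seq protocol. The authors mapped reads to mm9 with STAR (version not given in the sources used here), kept reads with a single place without splice prediction, counted them in the 3′-UTR or, for new H3 genes, the 3000 bases after the coding sequence, and deposited RPM values, scaled to the uniquely mapped reads of a library. Every value was a whole multiple of 1 step per column (within 1.1e-07 reads), which gave the reads. Differences were tested with limma (trend) on log2(RPM + 0.1), with 4 tissue groups, genes with a mean of at least 0.5 RPM and Benjamini-Hochberg adjustment, and the script was checked on simulated data. Testis libraries were compared by exact two-sided binomial tests. Named genes were those past the threshold, testis histones, the 5 highest in testis, genes read in testis alone, the highest of each class, the 5 lowest against somatic tissues, the main H3 genes and the 3 least equal between testis libraries. Genes, lists and tests were chosen with earlier results of these data known. Alternatives covered pseudocounts, filters, a replicate block, 2 groups, robust settings, scaling to histone reads, leaving out libraries and, chosen after seeing the data, limma voom weights. Gene models were GENCODE vM1 on NCBIM37. mRNA-Seq and ChIP-seq were not analysed here. Versions were Python 3.11.15, scipy 1.17.1, R 4.3.3, limma 3.58.1, pysam 0.24.0 and matplotlib 3.10.9.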

Additional observations from a re-analysis of the deposited data

How the results depend on the processing

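Over the alternatives no difference of a tested gene changed sign. Of the counts of called genes, 46 moved by more than 1.5 times and 94 did not. The count higher in testis than in the somatic tissues (7) was 3 with a mean of at least 2 RPM and 1 to 6 with a library left out. The count lower (1) was 3 per 1000 histone reads and 0 to 1 with a library left out. Higher than brain (4), the count was 1 with a pseudocount of 0.01 RPM, robust settings or voom weights, 2 per 1000 histone reads, and 1 to 5 with a library left out. Higher than liver (6), it was 2 with 0.01 RPM, 3 with at least 2 RPM, and 1 to 8 with a library left out. Lower than liver (1), it was 0 with a pseudocount of 0.01 or 1 RPM, no filter or voom weights, and 0 to 1 with a library left out. Higher than skeletal muscle (5), it was 1 with 0.01 RPM, 3 with at least 2 RPM, and 1 to 5 with a library left out. Lower than skeletal muscle (1), it was 2 with 1 RPM or no filter, 3 per 1000 histone reads, and 0 to 1 with a library left out. The count of genes with testis above every somatic tissue (10) was 10 to 16 with a library left out. The libraries that moved the count against the somatic tissues by over 1.5 times were those of testis, with 1 gene higher and 0 lower without replicate 1, and 2 higher and 0 lower without replicate 2. The cause was not tested, and a lone testis library is assumed to vary like the other groups. Without a filter the fit pooled less (6.31 degrees of freedom) and 8 genes were higher. With the table number as a replicate block 6 genes were higher and 1 lower, and Hist1h4a did not pass (adjusted p = 0.0806). Table numbers were otherwise used only as names of libraries. The shifts between tables correlated from -0.258 to 0.709 over the 6 pairs of tissues, highest for brain and skeletal muscle. In brain 11 genes and in skeletal muscle 6 were read only in replicate 1, and 0 only in replicate 2. For liver these counts were 4 and 4, and for testis 2 and 8. Whether some libraries of a table share a shift was not tested. The planned edgeR (by depth and with TMM) and DESeq2 fits were not run, because 76 genes gave too few low values per column to accept the worked-out reads as raw counts. The voom fit and the binomial tests use these same reads. Reads limit genes under about 10 counts, and having 2 libraries per tissue limits every call.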
